A study of Saccharomyces cerevisiae with 4 samples.

Results

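This report describes the budding yeast strain byMM1827, in which a denAsCas12a activator was directed to the promoter of HED1, against its control byMM1777, which has the same Cas protein and no ScRNA. A gene was a member if its counts averaged 10 or more across the 4 libraries of the series, which kept 6010 of the 6418 genes listed. There was 1 library per strain, so no difference below has a replicate error, no test was made and no p-value is given.

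Both strains were built on CEN.PK2-1C, a MATa laboratory strain of Saccharomyces cerevisiae that carries his3Δ1, leu2-3_112, ura3-52 and trp1-289. Both carry a reporter plasmid with the LEU2 marker, a plasmid with the URA3 marker that expresses the dead Cas12a protein from the GPD promoter, and a plasmid with the TRP1 marker that expresses MCP-VP64, a phage coat protein fused to an activation domain, from a mutated ADH1 promoter. byMM1827 carries in addition a plasmid with the HIS3 marker and a pair of ScRNA-5′ units under the SNR52 promoter, one for HED1 and one for the lexOpR site in front of the reporter yEGFP. The pair therefore differs in 2 ScRNAs and in the HIS3 marker at once, and their parts in a difference cannot be told apart. The series also holds byMM1832, with dCas12e and ScRNAs for GAL7 and lexOpR, and its control byMM1736, with dCas12e and no ScRNA. byMM1736 was used here as a further library without ScRNA, although it differs from byMM1777 in the Cas protein and the reporter plasmid.

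An ScRNA is a Cas guide RNA that carries an RNA hairpin. The guide part pairs with DNA next to a short PAM, the dead Cas protein holds the complex there without cutting, and the hairpin binds the coat protein and so brings the activation domain to the promoter. HED1 encodes a meiosis-specific protein that regulates strand exchange, the step in which broken chromosomes find and copy their homologues. In cells that divide by mitosis HED1 is normally little expressed.

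The HED1 target and its promoter are shown first, because they place the activator on the genome. In the reference assembly R64 of strain S288C (RefSeq), the 20-base target lies on the plus strand of chromosome IV at chrIV:477665-477684, behind the PAM TTTC, and no other exact copy behind a TTTV PAM was found in the 12157105 bases of the assembly. The first line gives the PAM in lower case and the target in capitals, and the second gives chrIV:477625-477799, plus strand, with PAM and target in capitals and the ATG of HED1 as its last bases.
pHED1 target: tttcACGGCTTTAATTAGCGTACG
HED1 promoter: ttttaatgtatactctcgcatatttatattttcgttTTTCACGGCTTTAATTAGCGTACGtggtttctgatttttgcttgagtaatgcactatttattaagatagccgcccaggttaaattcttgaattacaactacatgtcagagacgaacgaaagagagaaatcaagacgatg

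Between the end of the target and the start of the HED1 reading frame, chrIV:477797-478285, lie 112 bases. The nearest similar site, with up to 5 mismatches allowed, was at chrX:255038-255057, plus strand, inside TOK1, a potassium channel gene, behind the PAM TTTG. It is printed to show where the mismatches fall, with the mismatched bases in capitals.
TOK1 site: tttgacggctttaaGtagcTCTTg

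The differences from the target were T11G, G16T, T17C, A18T and C19T, with positions counted from 1 at the base next to the PAM and the target's base first. KHA1, which encodes a potassium and proton antiporter, starts 595 bases from this site and was the one gene that starts within 1000 bp of it. KHA1 was at 42.1 TPM in byMM1777, 39.8 TPM in byMM1827, 36.5 TPM in byMM1736 and 48.7 TPM in byMM1832, a ratio of 0.946 (95% counting interval 0.909 to 0.985) in the pair. For the lexOpR target 2 sites with 5 mismatches were found, on chromosomes IV and VI, with no gene starting within 1000 bp of either. TPM is the authors' measure of transcript abundance, a count divided by gene length and scaled to a common total, and all ratios below are of TPM in byMM1827 over byMM1777 unless another pair is named.

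The intervals come from the counts of the 2 libraries (Clopper-Pearson) and cover counting error alone, with each read taken as a separate count. Amplified reads are not separate molecules, so the intervals may be too narrow even for that error. The libraries held between 37275559 and 54013763 counts, byMM1777 being the smallest, and a median gene had between 1914 and 2488 counts. The median ratio of all tested genes was 0.894, or −0.16 on the log2 scale, so that a gene at a ratio of 1 stood above the median gene. A ratio under 1 was found in 71.6% of all tested genes (4306), and in 2282 with byMM1736 as the control. MATa-specific STE2, the receptor for alpha factor, was between 167 and 196 TPM in the 4 libraries, and the MATalpha-specific STE3, SAG1 and both alpha-factor genes were between 5.55 and 32.9 TPM. STE6, a further MATa-specific gene, was at most 18.1 TPM, within the range of the MATalpha list.

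HED1 (YDR014W-A), the endogenous target, was higher in byMM1827 than in each of the other 3 libraries. It was at 15.8 TPM in byMM1777, 30.3 TPM in byMM1827, 16.6 TPM in byMM1736 and 8.43 TPM in byMM1832, from 292, 819, 428 and 200 counts. The 2 libraries without ScRNA lay close together, byMM1827 stood above both and byMM1832 stood below them. The ratio was 1.92 (1.68 to 2.20) in the pair, 2.15 relative to the median gene, and 1.83 (1.62 to 2.06) against byMM1736. In the dCas12e pair, where no ScRNA targets HED1, the ratio of byMM1832 to byMM1736 was 0.508 (0.428 to 0.603).

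Among the 6010 tested genes HED1 was number 48 from the highest ratio against byMM1777 and number 38 against byMM1736, comparisons that share byMM1827. It lay just under the 2-fold limit used to count genes below, and past it with the counts scaled by TMM (2.14) or by median ratios (2.15). All of its 31-base words occur once in R64, and no other gene of the annotation overlaps it.

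The 2 annotated genes on each side of HED1 did not share its pattern. RAD61, a cohesin regulator whose reading frame ends upstream of the target at chrIV:474046-475989, was at 7.30 TPM in byMM1777, 3.93 TPM in byMM1827, 4.34 TPM in byMM1736 and 4.25 TPM in byMM1832. Its ratio was 0.539 (0.473 to 0.613), with byMM1777 high and the other 3 libraries close together. DAD1, a subunit of the kinetochore DASH complex just downstream, was at 50.6 TPM in byMM1777, 72.2 TPM in byMM1827, 84.9 TPM in byMM1736 and 60.7 TPM in byMM1832. It had a ratio of 1.43 (1.29 to 1.58) and was highest in byMM1736.

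PSF1, a subunit of the GINS replication complex, had a ratio of 0.978 (0.894 to 1.07), and KCS1, an inositol hexakisphosphate kinase, 0.796 (0.753 to 0.843). The plot of HED1 and its neighbours shows that of the 5 genes at the locus HED1 was the one whose value in byMM1827 was above both controls.

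**Figure D1:**
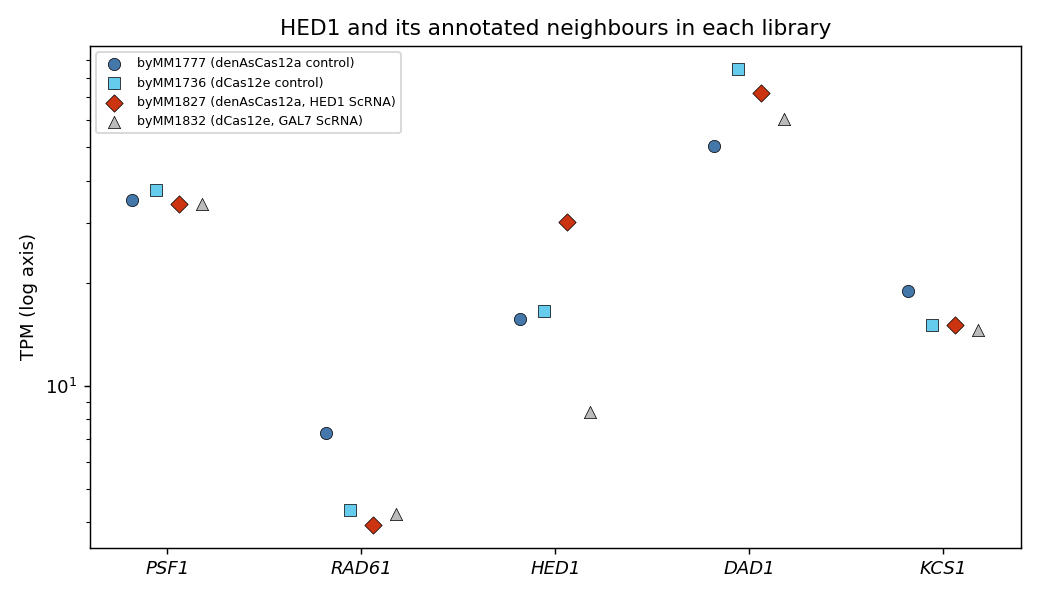
TPM on a log axis of HED1, the 2 annotated genes on each side of it in chromosome order, with 1 point per library. HED1 is at 30.3 TPM in byMM1827 against 15.8 and 16.6 TPM in the 2 controls, while RAD61 is highest in byMM1777 and DAD1 in byMM1736.

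The other genes of strand exchange were not 2-fold apart, save 1 at few counts. Of all tested genes 1.4% were past 2-fold. Of the 19 tested genes of a list of strand exchange genes and their regulators, 1 was at least 2-fold higher and 0 were at least 2-fold lower, and the median log2 ratio was −0.03, against −0.16 for all genes. The 1 past 2-fold was HOP2, which acts with Mnd1 in meiotic pairing, at 10 counts in byMM1777 and 42 in byMM1827, a ratio of 2.82 (1.42 to 6.43).

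DMC1, the meiotic recombinase, had a ratio of 1.31 (1.23 to 1.39), and RFA3, a subunit of the single-strand binding protein RPA, 1.61 (1.52 to 1.71). RAD57, RAD52 and RAD59, which serve recombinational repair, had ratios of 0.772, 0.813 and 0.822. Against byMM1736 the strand exchange list had a median log2 ratio of 0.25, beside 0.06 for all genes. In that comparison 18 of its 19 genes were over 1, so the side of 1 depended on the control for many of them.

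HIS3 had the highest ratio of all tested genes. It encodes imidazoleglycerol-phosphate dehydratase of histidine synthesis and is the marker of the plasmid that carries the ScRNAs. It was at 207 TPM in byMM1777, 5309 TPM in byMM1827, 255 TPM in byMM1736 and 2770 TPM in byMM1832, which is high in the 2 strains with a HIS3 plasmid and low in the 2 without. The ratio was 25.6 (24.9 to 26.4) in the pair. Reads of the plasmid copy and of the his3Δ1 allele cannot be told apart in these counts.

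The other 6 tested genes of histidine synthesis were between 0.717 (HIS1) and 0.965 (HIS7), and the 7 genes of the list fell on both sides of the median gene, 3 above and 4 below. The markers that both strains carry were closer to 1. LEU2 had a ratio of 1.13, URA3 0.800 and TRP1 0.767. Among genes whose promoter or terminator is used in the plasmids, TDH3, whose GPD promoter drives the Cas protein, had 1.38, ADH1 1.31 and CYC1 0.925. SNR52, whose promoter drives the ScRNAs, had 5 counts in each library of the pair and no ratio is read from it.

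Over all genes the pair lay close together. Within 1.5-fold were 91.9% of tested genes. At least 2-fold apart were 84 of 6010 genes (1.4%), of which 46 were higher (0.765%) and 38 lower (0.632%) in byMM1827. With the counts scaled by TMM or by median ratios, 61 were higher and 18 lower, and relative to ACT1, 27 were higher and 101 lower, so the split by direction depends on the scaling. The interval lay wholly past 2-fold in 36 genes (0.599%), 18 in each direction.

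The control libraries byMM1777 and byMM1736 were at least 2-fold apart in 113 of the same genes (1.88%), of which 65 were higher (1.08%) and 48 lower (0.799%) in byMM1777. Against byMM1736, byMM1827 had 36 genes past 2-fold (0.599%), 21 higher (0.349%) and 15 lower (0.25%). Fewer genes were thus past the limit in the pair than between the 2 libraries without ScRNA. The dCas12e pair had 210 (3.49%).

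In many of the 84 genes byMM1777 was the library that stood apart. Of the 46 higher genes, byMM1777 was the lowest of the 4 libraries in 44, byMM1827 was the highest in 15, and 37 were within 1.5-fold of byMM1736. Of the 38 lower genes, byMM1777 was the highest in 34, byMM1827 was the lowest in 11, and 27 were within 1.5-fold of byMM1736. Genes chosen for their ratio in this pair are apt to have an extreme value in one of its libraries, so these counts are a description.

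**Figure D2:**
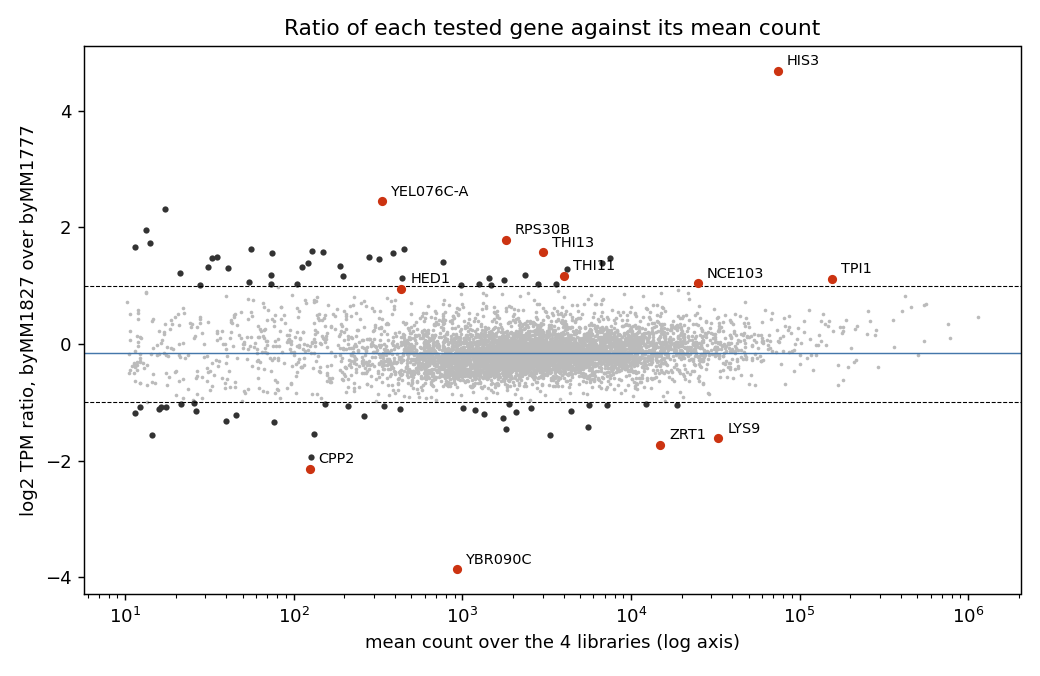
The log2 TPM ratio of byMM1827 over byMM1777 for each tested gene against its mean count over the 4 libraries on a log axis, with the 84 genes past 2-fold in black, selected genes in red, dashed lines at 2-fold and a blue line at the median of −0.16. HIS3 at 25.6-fold and YBR090C at a ratio of 0.0686 stand farthest out, and genes with few counts spread widely on both sides.

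Against both control libraries at once, 4 genes were at least 2-fold higher (0.0666%) and 4 at least 2-fold lower (0.0666%). The higher ones were HIS3, THI13, THI11 and YGL262W, and the lower ones were ZRT1, LYS9, SNR61 and FMP49. Both controls were compared with the same library byMM1827, so these comparisons share it. SNR61, with 14 and 10 counts in the pair, and FMP49, with 14 and 7, rest on few reads.

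THI13 and THI11 belong to the THI5 family, whose near-identical members make the pyrimidine precursor of thiamine. THI13 was at 40.1 TPM in byMM1777, 119 TPM in byMM1827, 42.9 TPM in byMM1736 and 28.3 TPM in byMM1832, a ratio of 2.97 (2.81 to 3.14). THI11 was at 62.1, 140, 63.1 and 45.7 TPM in the same order, a ratio of 2.25 (2.15 to 2.36). Both were highest in byMM1827 and close together in the 2 controls.

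Of their 31-base words, 29.0% for THI13 and 12.5% for THI11 occur once in R64, so the counting could have split reads among the copies and each value is uncertain. Added over the 4 members THI5, THI11, THI12 and THI13, the family was at 536 TPM in byMM1777, 762 TPM in byMM1827, 690 TPM in byMM1736 and 371 TPM in byMM1832. The summed ratio was 1.42 in the pair and 1.10 against byMM1736, so the sum lay nearer to 1 than THI11 or THI13 alone. Of the 21 tested thiamine genes, 2 were at least 2-fold higher and 0 lower, beside 0.765% and 0.632% of all tested genes. The list's median log2 ratio was −0.03 in the pair, above the −0.16 of all genes. Against byMM1736 it was −0.21, below the 0.06 of all genes. THI4, which makes the thiazole precursor, had a ratio of 0.877, and THI7, the thiamine transporter, 0.786.

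ZRT1, the high-affinity zinc transporter of the plasma membrane, was at 299 TPM in byMM1777, 90.3 TPM in byMM1827, 652 TPM in byMM1736 and 44.7 TPM in byMM1832. It was lower in both strains with ScRNAs than in both without, and the controls themselves were 2-fold apart. The ratio was 0.302 (0.293 to 0.312) in the pair and 0.0686 in the dCas12e pair.

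Of the 18 tested genes of zinc homeostasis, 0 were at least 2-fold higher and 1 lower, beside 0.765% and 0.632% of all tested genes. Their median log2 ratio was −0.29, and 11 lay below the median gene. ZRT2, the low-affinity transporter, had a ratio of 0.604 (0.584 to 0.626), ZAP1, the zinc-responsive activator, 0.641 (0.618 to 0.665), and ZPS1, a cell surface protein induced by zinc limitation, 0.663 (0.589 to 0.747). TSA1, a peroxiredoxin, went the other way at 1.32.

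LYS9, which encodes saccharopine dehydrogenase, was at 926 TPM in byMM1777, 303 TPM in byMM1827, 740 TPM in byMM1736 and 156 TPM in byMM1832. It was lower in both strains with ScRNAs than in both without. The ratio was 0.327 (0.322 to 0.332) in the pair, 0.409 against byMM1736 and 0.210 in the dCas12e pair.

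Genes of lysine synthesis were the list with the lowest median. Of 10 tested, 9 lay below the median gene, 1 was at least 2-fold lower and 0 higher, and the median log2 ratio was −0.72, which is 0.56 below the median of all genes. Against byMM1736 the median was −0.52 and 9 of 10 were under 1. LYS12, homoisocitrate dehydrogenase, was at 449 TPM in byMM1777, 227 TPM in byMM1827, 394 TPM in byMM1736 and 133 TPM in byMM1832, a ratio of 0.505 (0.494 to 0.516). LYS20, the homocitrate synthase at the head of the pathway, was at 1231, 758, 1363 and 167 TPM in the same order, a ratio of 0.616 (0.609 to 0.623). Both had the order seen for LYS9, with byMM1832 lowest and byMM1827 next.

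LYS1, LYS4 and LYS2 had ratios of 0.529, 0.567 and 0.639, and LYS14, the activator of the pathway, had 0.598. LYS5, which activates the Lys2 enzyme, had 0.923.

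The promoters of ZRT1 and LYS9, from 250 bases before the start to 50 after it, are printed because these are the lower genes with many counts against both controls. For ZRT1, chrVII:20728-21027, plus strand, the capitals mark the Zap1 motif CCTTNAAGG. For LYS9, chrXIV:715339-715638, minus strand, the capitals mark the Lys14 motif TCCNNNGGA.
ZRT1 promoter: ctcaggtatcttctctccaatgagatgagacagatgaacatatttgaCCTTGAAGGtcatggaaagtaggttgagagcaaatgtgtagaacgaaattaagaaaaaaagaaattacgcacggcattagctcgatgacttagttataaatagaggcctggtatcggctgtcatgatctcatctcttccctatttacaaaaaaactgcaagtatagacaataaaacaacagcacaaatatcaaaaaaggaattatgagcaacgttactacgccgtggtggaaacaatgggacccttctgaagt
LYS9 promoter: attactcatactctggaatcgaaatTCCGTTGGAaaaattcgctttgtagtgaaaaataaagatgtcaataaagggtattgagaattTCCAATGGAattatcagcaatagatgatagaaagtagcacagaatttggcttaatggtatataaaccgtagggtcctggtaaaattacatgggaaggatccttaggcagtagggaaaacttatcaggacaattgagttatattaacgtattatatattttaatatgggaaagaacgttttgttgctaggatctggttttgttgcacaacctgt

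Searched on both strands, the Zap1 motif CCTTNAAGG was in 0.442% of 5885 promoters of tested genes, in 1 of 33 promoters of the lower genes (ZRT1) and in 0 of 32 of the higher genes. The Lys14 motif TCCNNNGGA was in 3.43% of all promoters, in 3 of 33 of the lower genes, LYS9 among them, and in 0 of 32 of the higher genes, and LYS9 held 2 copies. The stress element AGGGG was in 6 of 32 promoters of the higher genes (18.8%), 6 of 33 of the lower (18.2%) and 21.8% of all. PAC, GATGAG, was in 7 (21.9%), 9 (27.3%) and 20.1% in that order. The Gcn4 motif TGACTCA was in 1 (3.12%), 2 (6.06%) and 2.74%. RRPE, AAAATTTT, was in 2 (6.25%), 5 (15.2%) and 9.12%, and the Hsf1 motif TTCNNGAA in 4 (12.5%), 4 (12.1%) and 12.9%. The shares of the higher and lower genes thus rest on few promoters. Motif windows may overlap one another, and a match is a description of the letters only.

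At a lower limit, 1.5-fold against both controls in genes averaging 100 or more counts, 16 of 5734 genes were higher (0.279%) and 12 lower (0.209%). This limit was set after the values were seen, as were the genes it adds. HED1 was number 7 of the 16 when ordered by the smaller of its 2 ratios, after HIS3, THI13, YGL262W, THI11, COS12 and YLR302C. YLR302C overlaps MET17 on the opposite strand by 12 bp.

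NCE103, the carbonic anhydrase, had the most counts of the higher genes after HIS3. It was at 537 TPM in byMM1777, 1102 TPM in byMM1827, 617 TPM in byMM1736 and 739 TPM in byMM1832, a ratio of 2.05 (2.01 to 2.09). COS12, of the subtelomeric COS family, was at 3.16, 9.78, 5.03 and 13.3 TPM in the same order, a ratio of 3.10 (2.56 to 3.75). NCE103 was highest in byMM1827 and COS12 in byMM1832. The other 10 tested COS genes were between 0.864 (COS1) and 1.30 (COS8).

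IMD2, an IMP dehydrogenase of guanine nucleotide synthesis, had a ratio of 1.81 (1.73 to 1.89) and was at 267 TPM in byMM1832, above the other 3 libraries. SIP18, a hydrophilin made on drying and salt stress, had 1.69 and was at 17.0 TPM in byMM1832, below the other 3. EGO2, a subunit of the vacuolar EGO complex, was at 39.2 TPM in byMM1777, 104 TPM in byMM1827, 65.8 TPM in byMM1736 and 57.9 TPM in byMM1832. Its ratio was 2.66 (2.36 to 3.01). AAC3, a mitochondrial ADP/ATP carrier, had 1.58, SDH7, a succinate dehydrogenase assembly factor, 1.57, and COQ3, a methyltransferase of coenzyme Q synthesis, 1.80. The remaining 2 were YJL218W and YML083C, at 1.62 and 1.53.

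Of the 12 lower genes, 4 were lysine genes (LYS9, LYS12, LYS20 and LYS2) and 2 zinc genes (ZRT1 and ZPS1). FDH1, formate dehydrogenase, was at 118 TPM in byMM1777, 74.9 TPM in byMM1827, 173 TPM in byMM1736 and 27.6 TPM in byMM1832, a ratio of 0.635. ADE17, which carries out the last steps of purine synthesis, had 0.652 and was at 129 TPM in byMM1832, above the other 3 libraries. OPT2, an oligopeptide transporter, had 0.627, MRA1 0.551, YOR192C-C 0.552 and RDN5-1, a copy of the repeated 5S rRNA gene, 0.665.

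**Figure D3:**
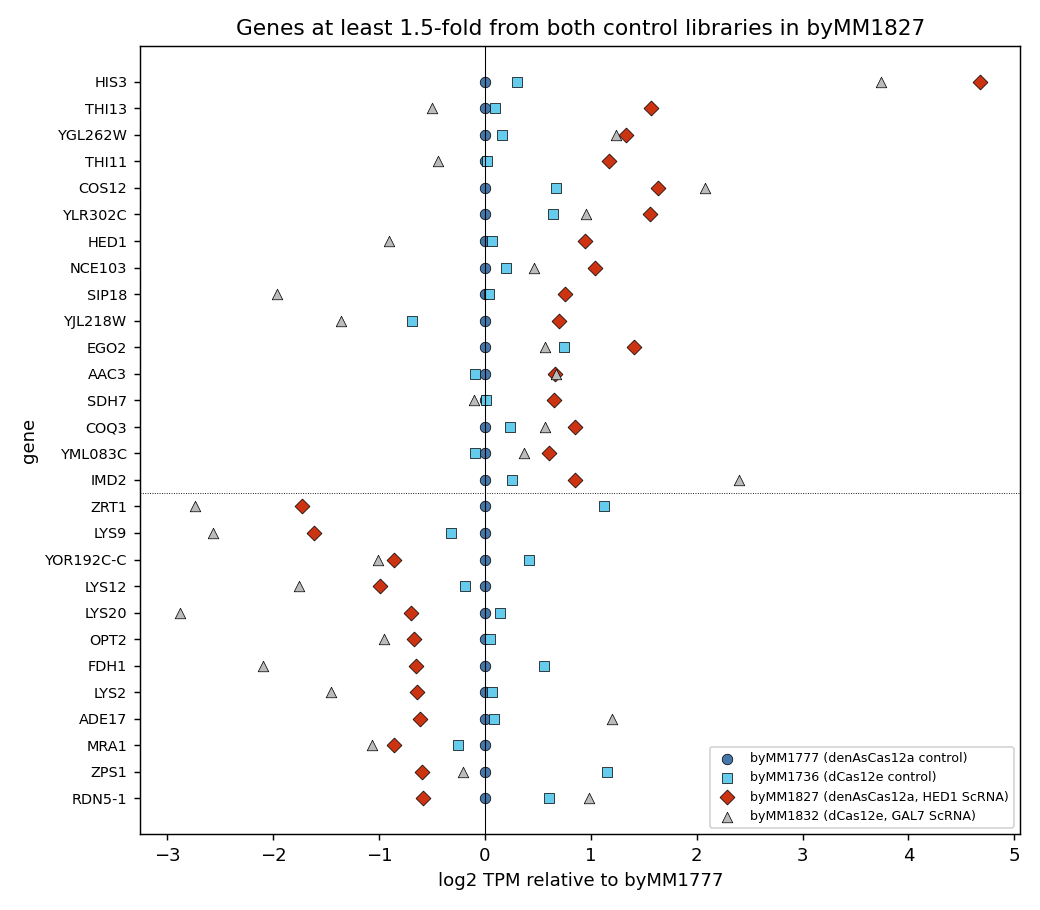
Log2 TPM relative to byMM1777 for the 28 genes at least 1.5-fold from both control libraries in byMM1827 that averaged 100 or more counts, higher genes above the dotted line, 1 symbol per library. HED1, THI13 and THI11 are above both controls in byMM1827 and below them in byMM1832, while ZRT1 and the 4 lysine genes are below both controls in both strains with ScRNAs.

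Among the 12 highest ratios with an interval past 2-fold were ribosomal protein genes in which byMM1777 stood apart. RPS30B, a protein of the small ribosomal subunit, was at 62.8 TPM in byMM1777, 217 TPM in byMM1827, 212 TPM in byMM1736 and 255 TPM in byMM1832, a ratio of 3.46 (3.12 to 3.83). RPS28A was at 247, 684, 788 and 1214 TPM in the same order, a ratio of 2.77 (2.64 to 2.92). In both, byMM1777 was low and the ratio of byMM1827 to byMM1736 was 1.02 and 0.868.

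Of the 138 tested ribosomal protein genes 5 were at least 2-fold higher and 0 lower, beside 0.765% and 0.632% of all tested genes. Their median log2 ratio was 0.00 in the pair and −0.24 against byMM1736. The 5 were RPS30B, RPS28A, RPL36A, RPL39 and RPL41B. At the other end were RPS20, with a ratio of 0.585, and RPS26A, with 0.641. Genes of ribosome biogenesis had a median of −0.36 in the pair, with 80 of 99 below the median gene and 93 under 1, and of 0.06 against byMM1736, with 35 of 99 under 1. NOP7, a 60S assembly factor, had the lowest ratio of that list at 0.525 (0.490 to 0.562) and stood at 1.13 against byMM1736. For both lists the position relative to the control thus depended on which control was used.

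TPI1, triose phosphate isomerase, had the highest mean count of the genes past 2-fold. It was at 1952 TPM in byMM1777, 4233 TPM in byMM1827, 4898 TPM in byMM1736 and 5438 TPM in byMM1832, a ratio of 2.17 (2.15 to 2.19), with byMM1777 apart from the other 3. In a list of 17 glycolysis genes added after the values were seen, 14 had a ratio over 1. Under 1 were 71.6% of all tested genes. At least 2-fold higher was 1 and lower 0, beside 0.765% and 0.632% of all tested genes. The list's median log2 ratio was 0.30 in the pair and −0.03 against byMM1736. PGK1, phosphoglycerate kinase, had 1.77 and ENO2, enolase, 1.61, the latter at 0.942 against byMM1736. HXK1, a hexokinase induced away from high glucose, had 0.619.

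Respiration and its regulator gave lower values in the pair for some genes. HAP4, the activation subunit of the factor that drives respiratory genes, was at 123 TPM in byMM1777, 59.6 TPM in byMM1827, 74.2 TPM in byMM1736 and 36.7 TPM in byMM1832, a ratio of 0.486 (0.469 to 0.503). QCR7, of complex III, was at 1560, 751, 1048 and 838 TPM in the same order, a ratio of 0.481 (0.472 to 0.491). MPC3, a mitochondrial pyruvate carrier, had 0.451 and GAC1, a regulator of glycogen synthesis, 0.467. HAP4, MPC3 and GAC1 were highest in byMM1777 and lowest in byMM1832, and byMM1827 lay near byMM1736, at ratios of 0.803, 0.880 and 0.770.

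Of the 9 tested complex III genes 1 was at least 2-fold lower and 1 higher, the latter being QCR8 at 3 and 14 counts, and the median log2 ratio was −0.16. Of the 12 genes of complex IV and cytochrome c 0 were past 2-fold, with a median of −0.21. Against byMM1736 the medians were −0.32 and −0.20. In the tricarboxylic acid cycle 1 of 18 genes was at least 2-fold lower, 0 were higher and the median was −0.08. Among all tested genes 0.765% were at least 2-fold higher and 0.632% lower, so counts of 0 or 1 in these short lists say little.

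Stress and damage genes were past 2-fold in small numbers, and a count of 0 in such short lists says little. Among all tested genes 1.4% were past 2-fold, 0.765% higher and 0.632% lower. Of 56 genes induced by Msn2 and Msn4, 0 were at least 2-fold higher and 2 lower (MPC3 and GAC1). Their median was −0.03, which is 0.13 above that of all genes, and 37 lay above the median gene. HSP12, a small heat shock protein of membranes, was at 1262 TPM in byMM1777, 2163 TPM in byMM1827, 1470 TPM in byMM1736 and 524 TPM in byMM1832, a ratio of 1.71 (1.68 to 1.75). HSP26 had 1.39 and GPD1, of glycerol synthesis, 1.58. HSP12 was highest in byMM1827 and lowest in byMM1832, the order seen for HED1.

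Of 23 Hsf1 targets 0 were past 2-fold, 17 lay above the median gene and the median was 0.14, which is 0.31 above that of all genes, with HSP10 highest at 1.47. Of 21 genes of DNA damage and ribonucleotide reductase 0 were past 2-fold and 14 lay above the median gene. Their median was −0.03, which is 0.13 above that of all genes. Of 39 tested genes of meiosis and sporulation, the programme in which HED1 normally acts, 0 were past 2-fold. Their median was −0.16 in the pair, equal to that of all genes. Against byMM1736 it was 0.21, beside 0.06 for all genes, and 30 of 39 were over 1. SPS100, a spore wall gene, had the highest ratio of that list in the pair at 1.73 and IME1, the inducer of meiosis, had 0.660. Against byMM1736 they were at 1.45 and 1.19. The plot of list medians shows both controls side by side.

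**Figure D4:**
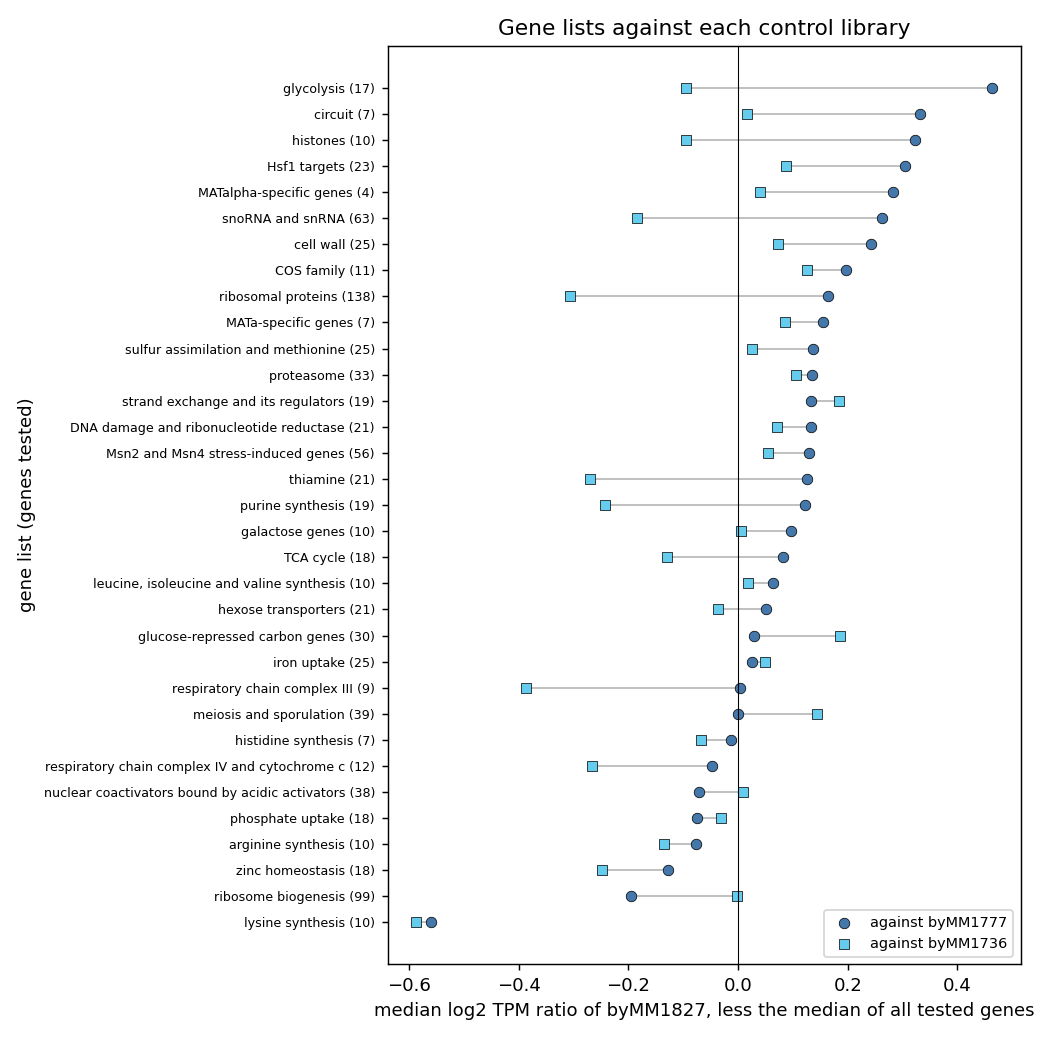
Median log2 TPM ratio of byMM1827 less the median of all tested genes, for 32 gene lists and the glycolysis list added later, with the number of genes tested in parentheses, circles for byMM1777 as the control and squares for byMM1736. Lysine synthesis is lowest against both, while glycolysis, ribosomal proteins and small RNAs lie above the median against byMM1777 and below it against byMM1736.

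In the short lists that follow, a count of 0 or 1 says little, since 1.4% of all tested genes were past 2-fold. Histone genes had 0 of 10 past 2-fold and a median 0.32 above that of all genes, but were below it with byMM1736 as the control. Galactose genes, not targeted in this strain, had 0 of 10 past 2-fold and 6 under 1, MTH1 at 0.539 and GAL4 at 0.789 among them. Under 1 were 71.6% of all tested genes. GAL7 was at 1.67 (1.25 to 2.24) from 68 counts in byMM1777 and GAL1 at 1.52. Against byMM1736 these 2 genes were at 1.32 and 1.24. Arginine genes had 0 of 10 past 2-fold and 8 below the median gene, with a median of −0.24. Purine synthesis had 0 of 19 past 2-fold, iron uptake 0 of 25, phosphate uptake 0 of 18, the proteasome 0 of 33, sulfur assimilation 0 of 25, branched-chain amino acid synthesis 0 of 10, hexose transporters 0 of 21, glucose-repressed carbon genes 0 of 30, and nuclear coactivators bound by acidic activators 0 of 38. In the cell wall list 1 of 25 was at least 2-fold higher, PRM10, at 2.03 in the pair and 0.979 against byMM1736. It overlaps YJL107C on the same strand by 4 bp.

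Most genes past 2-fold were protein coding, and small RNAs were a lesser part of them. By annotation 9 of the 46 higher genes were snoRNA or snRNA and 32 were protein coding. Among the 38 lower genes these were 1 and 32. Of the 63 tested snoRNA and snRNA genes of the list 8 were at least 2-fold higher and 1 lower, beside 0.765% and 0.632% of all tested genes. The list's median was 0.10 in the pair and −0.12 against byMM1736. SNR43, a guide of pseudouridylation, had 95 counts in byMM1777 and 389 in byMM1827, a ratio of 2.82 (2.24 to 3.55). SNR190 had 115 and 459 counts, a ratio of 2.75 (2.22 to 3.38). Reads from a library made of mRNA give a poor measure of such RNAs.

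By gene length, 6.15% of 309 genes under 300 bp were at least 2-fold higher and 2.27% at least 2-fold lower, against 0.0751% and 0.225% of 1332 genes of 2000 bp and over. By count, 5.43% and 4.35% of the 276 genes with a mean under 100 were past 2-fold in these directions, against 0.338% and 0.450% of the 888 genes over 10000. Genes with 2 or more coding exons, 316 in all, were at least 2-fold higher in 2.22%, against 0.450% of 5559 genes with 1. The parts of length, count and splicing in these shares were not tested.

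**Figure D5:**
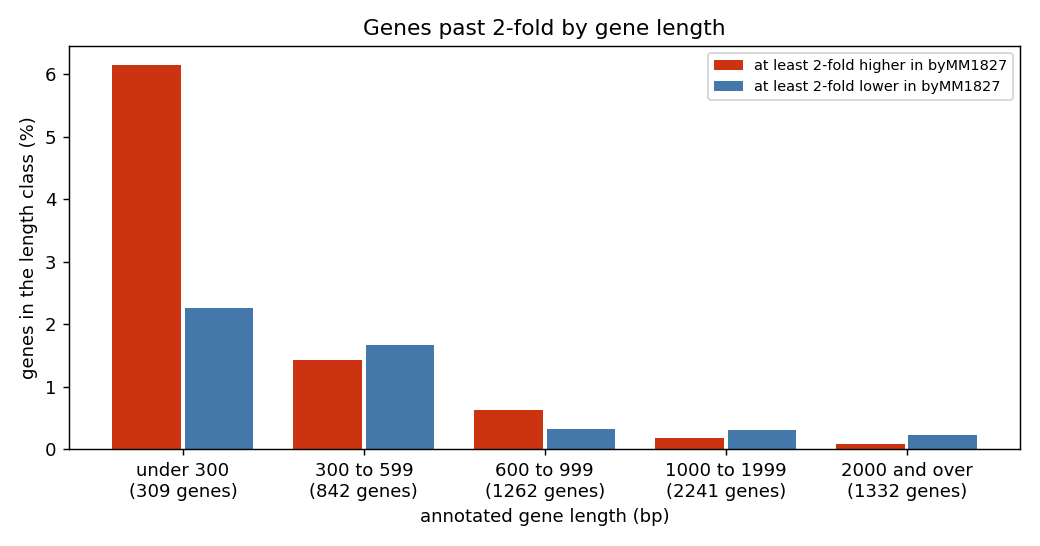
Percentage of tested genes in each class of annotated gene length that were at least 2-fold higher (red) or lower (blue) in byMM1827 than in byMM1777, with the number of genes below each class. The share of higher genes goes from 6.15% under 300 bp to 0.0751% at 2000 bp and over.

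Several large ratios fell on overlapping genes. YBR090C, a gene with no name of its own, had the lowest ratio of all tested genes, 0.0686 (0.0607 to 0.0776), from 2889 counts in byMM1777, 290 in byMM1827, 330 in byMM1736 and 232 in byMM1832. It overlaps NHP6B, a chromatin protein gene on the same strand, by 157 bp, and NHP6B had a ratio of 2.44, from 1451, 5158, 5823 and 4291 counts. Summed over both genes the counts were 4340, 5448, 6153 and 4523, and the ratio of the sums per total count was 0.866. In byMM1777 YBR090C was high and NHP6B low beside the other 3 libraries, and their sum lay near the median gene.

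YEL076C-A, with a ratio of 5.43, and YEL076C, with 0.343, overlap on the same strand by 651 bp, hold no 31-base word that occurs once in R64, and together had a ratio of sums of 1.40. CPP2, on the strand opposite YDR209C, had 229 counts in byMM1777, 76 in byMM1827, 0 in byMM1736 and 193 in byMM1832, so its ratio of 0.227 is set beside a control in which it was at 0. Of the higher and lower genes with a record in the annotation, 12.5% and 18.2% overlapped another gene, against 3.64% of all, and 15 of 79 genes past 2-fold (19.0%) had under 90% of words that occur once, against 6.7% of all. Whether the counting used strand is not given in the sources used here, so values of overlapping genes are uncertain.

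HMRA1, the silent copy of the a1 regulator of mating type, had a ratio of 0.413 (0.387 to 0.441), with 166 TPM in byMM1777, 68.4 TPM in byMM1827, 90.3 TPM in byMM1736 and 75.2 TPM in byMM1832. In a MATa strain its reads cannot be told from those of the expressed copy at MAT. CCW22, listed as a pseudogene, had 0.372, ISF1 0.340, DMO1 0.363 and NRS1 0.435. In these genes byMM1777 was the highest library, and DMO1 and NRS1 were over 1 against byMM1736, at 1.21 and 1.14.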

How the data were processed

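RNA was sequenced from 4 strains with 1 library each. The authors deposited read counts, which are whole numbers for each gene, and TPM, a measure that divides counts by gene length and scales each library to a common total. At few counts the TPM did not follow the whole-number counts exactly. SNR52, with 5 counts in each library of the pair, gave 0.586 by TPM and 0.690 by count per total count. The submitters' processing notes name FastQC, Trimmomatic, HISAT2, bedtools, StringTie and DESeq2, without roles. The genome build, annotation and strand setting are not given in the sources used here. The authors' 2 tables of comparisons, with fold changes and p-values, and 4 columns of other strains were not used.

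The TPM ratio was taken without a pseudocount over genes that averaged 10 or more counts, with a library at or under 3 counts set to the TPM of 3 counts and no ratio where both were. Intervals are 95% Clopper-Pearson intervals on counts. With 1 library per strain no model was fitted, and calls are 2-fold limits. TMM factors (edgeR 4.0.16) and median-ratio size factors (DESeq2 1.42.0, R 4.3.3) served as alternatives. Other steps used Python 3.11.15 (scipy 1.17.1, pandas 2.3.3, matplotlib 3.10.9, numpy 2.4.6), and the ratio script was tested on simulated data. Of 6418 identifiers 6140 matched the R64 annotation, from strain S288C, while the strains derive from CEN.PK2-1C.

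Targets were searched on both strands behind TTTV, allowing 5 mismatches at most and no bulge. A gene's share of unique words is that of its 31-base words found once in R64. Named genes were HED1 with 2 neighbours on each side, marker, circuit and reference genes, the 12 highest and lowest ratios with at least 50 counts and the interval past 2-fold, genes past 2-fold against both controls, up to 4 members per list with a mean of at least 100 counts, and genes near similar sites; other named genes were chosen after their values were seen. A few genes that this rule would name are not reported here. The members and the gene lists were chosen with earlier results of these data known.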

Additional observations from a re-analysis of the deposited data

Results flagged for a closer look

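Several genes had ratios at least 1.5-fold in opposite directions between the 2 pairs, byMM1827 over byMM1777 and byMM1832 over byMM1736, with 1 library per strain, and the difference was not tested. HED1 was at 1.92 in the former and 0.508 in the latter, HSP12 at 1.71 and 0.357, and THI13 at 2.97 and 0.659. ADE17 was at 0.652 and 2.17. CPP2 was at 0.227 and at least 70.0, since it had 0 counts in byMM1736 and was set there to 3 counts.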

How the results depend on the processing

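No paired analysis was possible because there was 1 library per strain. The number of genes past 2-fold was 84, with 46 higher and 38 lower. TMM and median-ratio factors each gave 61 higher and 18 lower of 79, with HED1 at 2.14 and 2.15, and scaling to ACT1 gave 128, with 27 higher and 101 lower, and a HED1 ratio of 1.65 in place of 1.92. With byMM1736 as the control there were 36, with 21 higher and 15 lower. A pseudocount of 1 TPM gave 25 lower. Without a filter 64 were lower, of 119 in all, and with a mean of at least 100 counts 31 were higher, 26 lower and 57 past 2-fold in all. A 3-fold limit gave 15, with 10 higher and 5 lower, a 1.5-fold limit 486, with 143 and 343, and an interval wholly past 2-fold 36, with 18 and 18.

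With byMM1736 as the control the ratio changed side of 1 for 52 of 152 named genes, of which 10 were past 2-fold in the pair: RDN58-2 at 0.994, RPS28A 0.868, CPP2 at least 24.2, YLR162W 1.501, YEL076C 1.76, DMO1 1.21, NRS1 1.14, RPL36A 0.981, RPL39 0.943 and PRM10 0.979, and the cause was not tested. The place of a list relative to the median gene had the same sign under each alternative in 21 of 32 lists, and in 8 more it differed with byMM1736 as the control and under no other alternative.

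The median ratio of all genes was −0.16 on the log2 scale, and 0.00 with TMM or median-ratio factors and −0.38 relative to ACT1, so ratios near 1 have no fixed direction. Depth limits the 276 genes with a mean under 100 counts most.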
